A study of Mus musculus with 18 samples.

Results

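Genes that build the contractile machinery of muscle, with marker genes of the mural cells that wrap blood vessels, were followed library by library in RNA from sorted cardiac resident macrophages (CRMs). The 35 genes were listed by symbol and looked up among the 55401 genes of the count table, and all 35 were found. They comprised 14 genes of the cardiac sarcomere, 5 genes of calcium handling, energy and hormone supply in cardiomyocytes, 4 genes shared by several kinds of muscle, 6 smooth muscle genes and 6 pericyte genes. The rule names the genes and uses no measured level, although the list was chosen with earlier results of these data known. The measurements describe how much RNA typical of other heart cells was counted in each macrophage library.

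According to the methods of the study, CRMs were sorted by flow cytometry on CD11b, CX3CR1 and CCR2 from digested left ventricles. The mice described there were female C57BL/6J mice, young or aged, fed normal chow. The 18 libraries fell into 6 groups of 3, namely CCR2- and CCR2+ CRMs from control hearts, from aged hearts and from hearts of mice on a high-fat diet. The control mice were taken as the young mice of the study, aged 3 months, and the aged mice were 20 months old. The age of the mice on the high-fat diet and the length of the diet are not given in the sources used here. The sex, strain and sorting of the mice on the high-fat diet are not described in those methods either. No transgene or deletion is named for any group, and nothing in the labels says which animals gave which library, so that the spread between libraries may be partly technical. RNA of each sort was amplified as full-length cDNA with a SMART-Seq kit.

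Striated muscle contracts through the sarcomere, in which thick filaments of myosin pull on thin filaments of actin that are regulated by tropomyosin and the troponin complex. Titin spans the sarcomere as a spring, and calcium released from and pumped back into the sarcoplasmic reticulum switches contraction on and off. Smooth muscle cells use their own actin and myosin isoforms, pericytes lie on capillaries, and macrophages are not known to assemble any of these structures. A cardiomyocyte makes the subunits of its sarcomeres together.

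Levels are given as CPM, that is, counts scaled to library totals of equal size with TMM factors. Total counts ran from 39753911 to 56541280, and 3 counts, the limit that a count of 0 allows, stood for 0.0374 to 0.154 CPM. Amplified reads are not independent molecules, so this limit covers counting error only. The macrophage label was borne out by a list of 15 macrophage genes led by Lyz2, which summed to 33926 to 160359 CPM and was 31.2 to 1042 times the sum of the 35 muscle and mural genes in the same library. In control CCR2- CRMs, library 3 lay between libraries 1 and 2 for 96.2% of the 5924 tested genes with a 2-fold gap or more between them, and in aged CCR2- CRMs for 97.2% of 6637 genes. For every other library this share was between 6.85% and 57.6%. The labels do not say whether library 3 of these groups is a separate sample, and the main folds and counts that rest on it are also given without it.

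The 35 genes were present in patches. Of the 630 combinations of gene and library, 96 (15.2%) reached 10 CPM and 201 had a count of 0. A level of 10 CPM was reached in at least 1 library by 25 genes, and in every library by 0 genes. Between 3 and 16 of the genes reached it in any 1 library. Tpm1, which encodes a tropomyosin made in many cell types, and Atp2a2, which encodes the calcium pump SERCA2 and is also widely expressed, were the 2 genes that reached 1 CPM in all 18 libraries. Ryr2, which encodes the calcium release channel of cardiomyocytes, had a count of 0 in all 18. The summed level of the 35 genes was lowest in aged CCR2- library 1, at 58.9 CPM, and highest in control CCR2- library 1, at 2469 CPM.

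**Figure D1:**
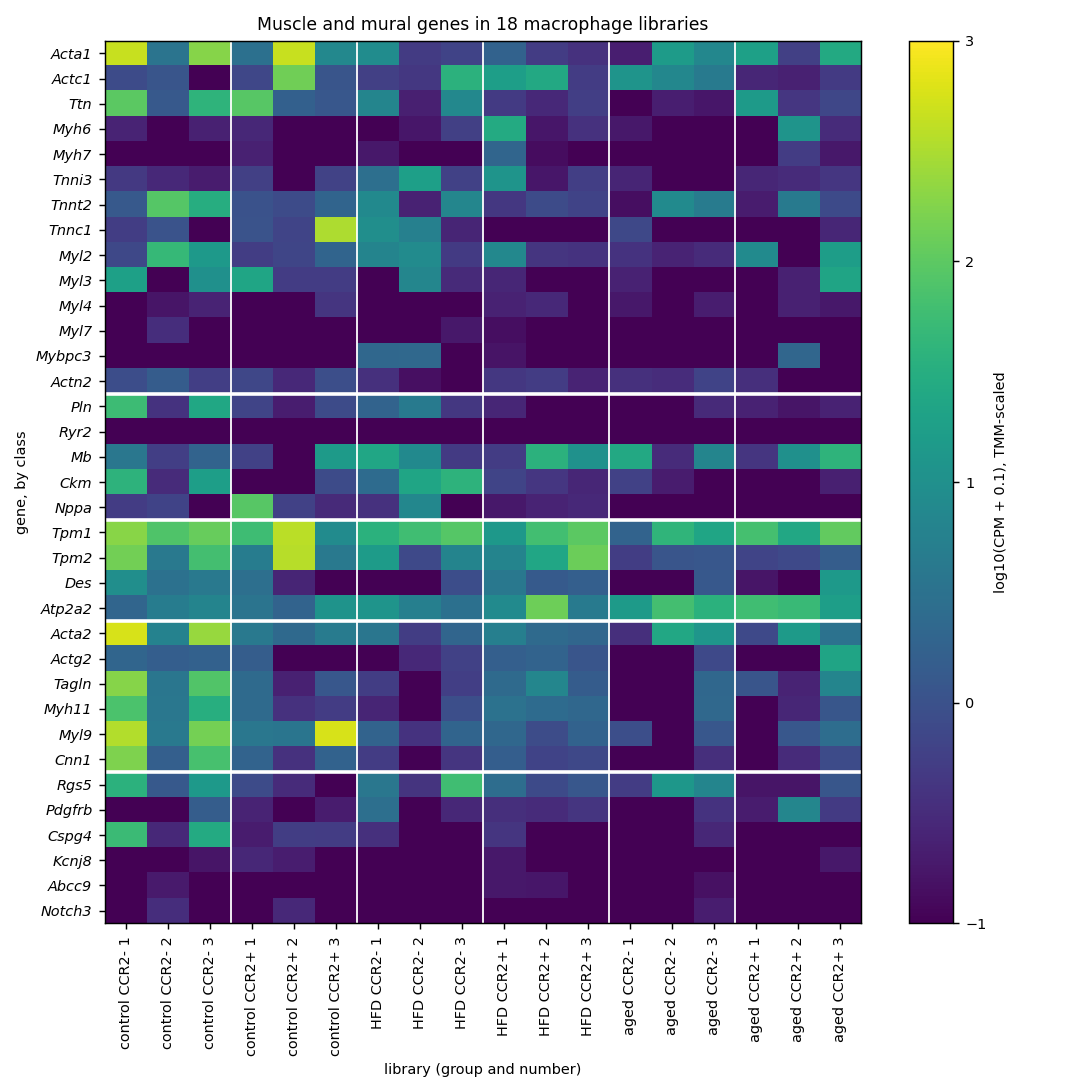
Level of each of the 35 genes (rows, by class, separated by thick white lines) in each of the 18 libraries (columns, by group, with the library number), as log10(CPM + 0.1) with TMM scaling. Bright cells stand alone or in short columns: 96 of the 630 cells reach 10 CPM, and the longest bright columns are control CCR2- libraries 1 and 3, with 14 and 16 genes at that level.

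The genes were concentrated in single libraries more than genes in general. For the 28 genes that passed the expression filter, the library with the highest level held a median of 51.2% of the gene's CPM summed over all 18 libraries, against 31.1% for all 15456 genes tested. Restricted to genes with a mean of 1 to 100 CPM, the medians were 52.7% for 25 of the genes and 33.3% for 10603 genes. The 15 macrophage genes had a median of 14.1%. The highest library differed from gene to gene, with 11 libraries being the highest for some gene. Control CCR2- library 1 was the highest for 10 of them.

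Troponin, the calcium sensor of the thin filament, has 3 subunits that cardiomyocytes make together, and their highest levels were found in different libraries. Tnnt2 (chromosome 1, 135836354 to 135852260, plus strand, GRCm38), which encodes the subunit that binds tropomyosin, was at 1.21, 89.2 and 30.5 CPM in control CCR2- libraries 1, 2 and 3 and at no more than 8.08 CPM elsewhere. Tnni3 (chromosome 7, 4518305 to 4524229, minus strand), which encodes the inhibitory subunit, was at 18.1 CPM in high-fat diet CCR2- library 2 and 11.7 CPM in high-fat diet CCR2+ library 1, and at no more than 2.74 CPM in the others. Tnnc1 (chromosome 14, 31208312 to 31211729, plus strand), which encodes the calcium-binding subunit, was at 317 CPM in control CCR2+ library 3, where Tnnt2 was at 1.85 and Tnni3 at 0.513 CPM. That 1 library held 94.5% of all Tnnc1 CPM. Exactly 1 of the 3 subunits reached 10 CPM in 5 libraries and none did in 13, so no library held 2 of them at that level. With the minimum lowered to 5 CPM, 2 of the 3 were present together in high-fat diet CCR2- libraries 1 and 2. At 1 CPM, 2 were present in control CCR2+ library 3 and high-fat diet CCR2- library 2, and all 3 in high-fat diet CCR2- library 1, at 7.79, 2.74 and 9.25 CPM for Tnnt2, Tnni3 and Tnnc1.

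The striated muscle actins of the thin filament were also high in few libraries. Acta1 (chromosome 8, 123891769 to 123894751, minus strand), the skeletal muscle actin, was at 467, 3.34 and 187 CPM in the control CCR2- libraries and at 2.91, 459 and 7.19 CPM in the control CCR2+ libraries. It ran from 0.267 to 8.79 CPM in the 6 high-fat diet libraries and from 0.12 to 26.4 CPM in the 6 aged libraries. Actc1 (chromosome 2, 114047282 to 114053548, minus strand), the cardiac actin, was at 138 CPM in control CCR2+ library 2 and at 37.0, 26.1, 17.4 and 11.6 CPM in high-fat diet CCR2- library 3, high-fat diet CCR2+ libraries 2 and 1 and aged CCR2- library 1. The ratio of Acta1 to Actc1 counts ran from 0.0103 to 657 over 17 libraries. In control CCR2- library 1 there were 21679 Acta1 counts beside 33 Actc1 counts. Genes of fast skeletal muscle, a list of 11 led by Tnnt3, summed to 318 CPM in control CCR2- library 1 and 834 CPM in control CCR2+ library 2, the libraries highest in Acta1, and to 4.67 to 441 CPM in the others. Their part in the Acta1 signal was not tested. Reads of the actin genes can be shared between near-identical paralogs, and how such reads were counted is not given in the sources used here.

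Thick filament and titin transcripts also came apart from one another. Myh6 (chromosome 14, 54941921 to 54966927, minus strand), the main myosin heavy chain of the adult mouse ventricle, was at 27.5 CPM in high-fat diet CCR2+ library 1 and 11.5 CPM in aged CCR2+ library 2. It was at no more than 0.468 CPM in the other 16 libraries, with 0 counts in 7 of them. Myh7, the slow myosin heavy chain, reached 1.94 and 0.412 CPM in the same 2 libraries and 0.129 CPM at most elsewhere. Its coding sequence resembles that of Myh6, so that these low values are uncertain.

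Ttn (chromosome 2, 76703980 to 76982547, minus strand), which encodes titin, was at 98.8 and 40.5 CPM in control CCR2- libraries 1 and 3 and at 91.8 CPM in control CCR2+ library 1, where Myh6 had 7, 8 and 7 counts. The ratio of Ttn to Myh6 counts ran from 0.0135 to 656 over the 10 libraries with counts of both. Myl2, the ventricular regulatory light chain, was at 47.1 and 14.6 CPM in control CCR2- libraries 2 and 3 and at 17.0 CPM in aged CCR2+ library 3. Myl3, the ventricular essential light chain, was at 0 counts in control CCR2- library 2 and at 18.8 to 22.6 CPM in control CCR2- library 1, control CCR2+ library 1 and aged CCR2+ library 3. Both light chains passed 10 CPM together in aged CCR2+ library 3 and in control CCR2- library 3, which lay between a library with Myl3 alone and a library with Myl2 alone.

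**Figure D2:**
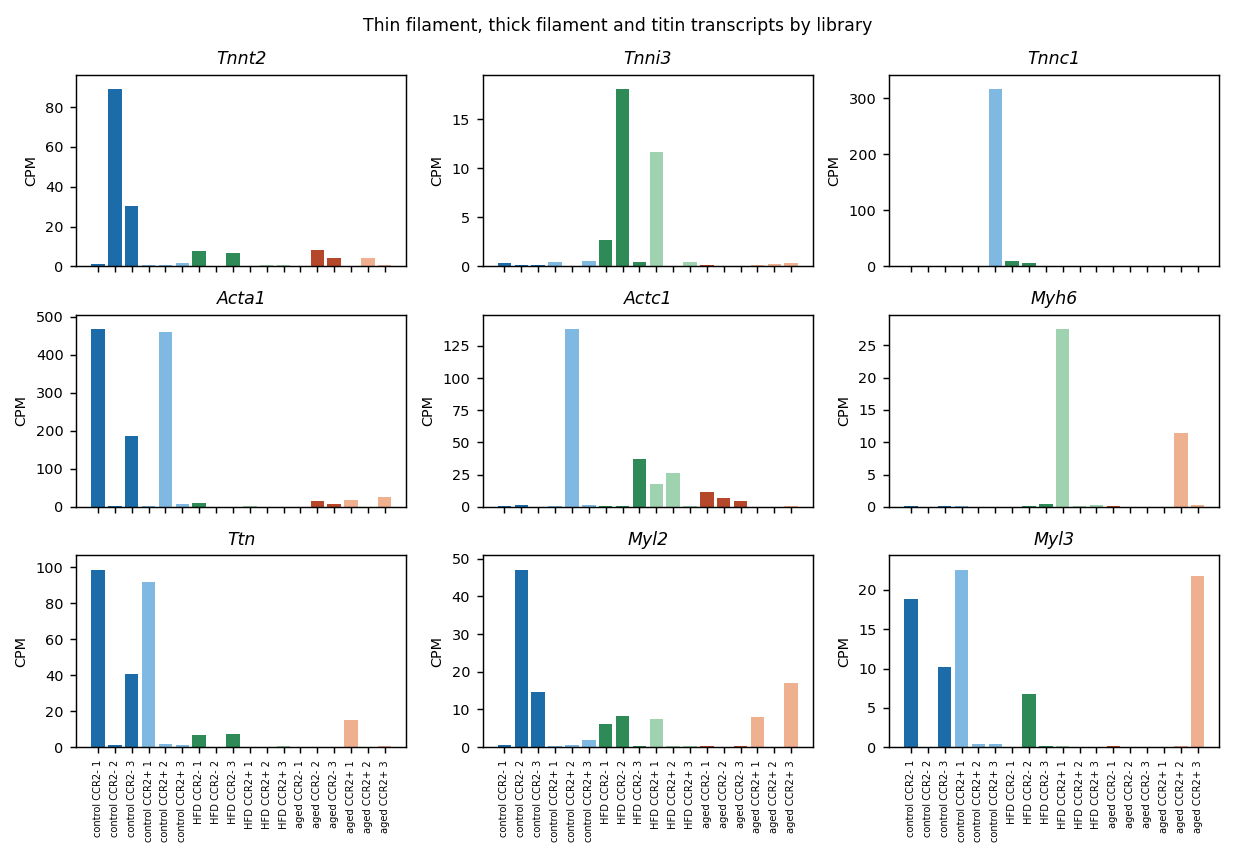
Levels in CPM (TMM scaling, linear axes from 0, a separate scale for each gene) of 3 troponin subunits, 2 actins, a myosin heavy chain, titin and 2 myosin light chains in the 18 libraries, coloured by group. Each gene has 1 to 6 tall bars, and they stand in different libraries: the single tall Tnnc1 bar at 317 CPM is in control CCR2+ library 3, where Tnnt2 and Tnni3 are at 1.85 and 0.513 CPM.

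Mybpc3, which encodes the myosin-binding protein of the cardiac thick filament, was at 1.96 to 2.13 CPM in 3 libraries and at 0.0618 CPM or 0 counts in the other 15. Actn2, which encodes the actinin that anchors thin filaments at the Z disc, stayed between 0 and 1.37 CPM. The atrial light chains Myl4 and Myl7 stayed at 0.308 and 0.237 CPM or less. Nppa (chromosome 4, 148000722 to 148002079, plus strand), which encodes the hormone ANP, was at 89.9 CPM in control CCR2+ library 1 and 7.0 CPM in high-fat diet CCR2- library 2, and at 0.545 CPM or less in the other 16. In control CCR2+ library 1 the Nppa counts were 3492, while Myl4 and Myl7 had 0 counts. All 6 aged libraries had 0 Nppa counts, which makes the aged CCR2+ CRMs at least 548-fold lower than the control CCR2+ CRMs, a bound that rests on that 1 control library and on 3 counts per aged library.

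The genes of calcium handling and energy supply were high in some of these libraries and in others as well. Pln, which encodes phospholamban, the inhibitor of the SERCA2 pump, was at 56.1, 0.284 and 24.4 CPM in control CCR2- libraries 1, 2 and 3 and at 4.42 CPM or less elsewhere. Ckm, which encodes the muscle creatine kinase, was at 38.3 and 17.4 CPM in control CCR2- libraries 1 and 3 and at 22.2 and 37.8 CPM in high-fat diet CCR2- libraries 2 and 3. Mb, which encodes myoglobin, was more evenly spread and reached 10 CPM in 7 libraries, with a range of 0 to 39.6 CPM and a median of 5.15 CPM.

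Promoters of muscle genes often carry the CArG box, the binding motif of serum response factor, which controls actin and other contractile genes in all kinds of muscle. The RefSeq promoters of 30 of the 35 genes were at hand, and none was at hand for Actg2, Atp2a2, Myh11, Pdgfrb and Tagln. A match to the strict 10-base motif, which reads as itself on the opposite strand, lay within 250 bases before the start of 5 of these 30 genes (16.7%), against 439 of 27025 genes (1.62%). These 5 are shown because 4 of them were among the genes with strong patches. Each line holds the 10 bases of the motif in capitals with 25 bases on either side, on the strand of the gene and in GRCm38.p6, and none of the 5 stretches overlapped an annotated exon.
Acta1, chr8:123894814-123894873, minus strand: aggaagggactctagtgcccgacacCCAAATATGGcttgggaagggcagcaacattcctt
Actc1, chr2:114052888-114052947, minus strand: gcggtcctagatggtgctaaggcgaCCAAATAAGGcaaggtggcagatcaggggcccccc
Myl9, chr2:156775278-156775337, plus strand: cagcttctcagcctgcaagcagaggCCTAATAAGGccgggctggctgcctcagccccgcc
Myl3, chr9:110763568-110763627, plus strand: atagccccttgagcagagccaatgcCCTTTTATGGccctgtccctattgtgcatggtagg
Myl7, chr11:5898809-5898868, minus strand: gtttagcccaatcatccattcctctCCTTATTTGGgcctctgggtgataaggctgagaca

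The motif began 73, 47, 161, 85 and 61 bases before the start of Acta1, Actc1, Myl9, Myl3 and Myl7. The genes that share it were high together in some libraries and apart in others. Acta1, Myl9 and Myl3 all passed 10 CPM in control CCR2- libraries 1 and 3, whereas of the 5 genes Myl9 alone did so in control CCR2+ library 3 and Myl3 alone in control CCR2+ library 1. Myl7 was low in every library. A match is a description of these letters, and binding was not measured.

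Of the 6 smooth muscle genes, 5 were high together in control CCR2- library 1, and also in library 3, which lay between libraries 1 and 2. Acta2 (chromosome 19, 34241090 to 34255590, minus strand), the smooth muscle actin, was at 563, 5.76 and 242 CPM in control CCR2- libraries 1, 2 and 3. Tagln (chromosome 9, 45929619 to 45936058, minus strand), which encodes the actin-binding protein SM22, was at 188, 3.58 and 82.6 CPM. Myl9 (chromosome 2, 156775420 to 156781658, plus strand), the regulatory light chain of smooth muscle and non-muscle myosin, was at 349, 4.05 and 145 CPM.

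Libraries 1 and 3 were high in each case and library 2 was low. Cnn1, which encodes calponin, was at 166, 1.54 and 68.0 CPM, and Myh11, the smooth muscle myosin heavy chain, was at 74.6, 3.79 and 32.2 CPM. Actg2, the enteric smooth muscle actin, was the exception, at 1.94, 1.49 and 1.62 CPM. In the other 15 libraries the class gave single genes at 10 CPM, which were Myl9 at 579 CPM in control CCR2+ library 3, Acta2 at 24.7, 12.5 and 14.8 CPM in aged CCR2- libraries 2 and 3 and aged CCR2+ library 2, and Actg2 at 21.9 CPM in aged CCR2+ library 3. The Myl9 counts of control CCR2+ library 3 numbered 11274, beside 87 counts of Acta2, 22 of Tagln and 8 of Myh11.

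The mixture of contractile transcripts differed from library to library. It was described by the counts of Acta2, Myl9, Tagln, Myh11, Cnn1, Actg2 and Des, the last encoding desmin, the intermediate filament of muscle. All 7 genes had at least 10 counts in 10 libraries. In 6 of these the 7 genes summed to 338 to 979 counts, and there Myh11 made up 12.1% to 19.8%, Des 7.93% to 19.9% and Actg2 6.44% to 11.4% of the sum. In control CCR2- library 1, with 62788 counts, the same genes made up 5.52%, 0.686% and 0.143%, and Acta2 made up 41.7%. In aged CCR2+ library 3, with 2452 counts, Actg2 made up 43.2% and Des 28.9%, and in aged CCR2- library 3, with 1607 counts, Myh11 made up 10.9% and Des 5.91%. The limit of 1500 counts that sets the 6 libraries apart was chosen after the values were seen, and asking for 10 counts of every gene raises the shares of the scarcer genes in libraries with few counts. In some other libraries 1 transcript made up nearly the whole sum, as in aged CCR2- library 2, where Acta2 gave all 1655 counts and the other 6 genes were at 0.

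**Figure D3:**
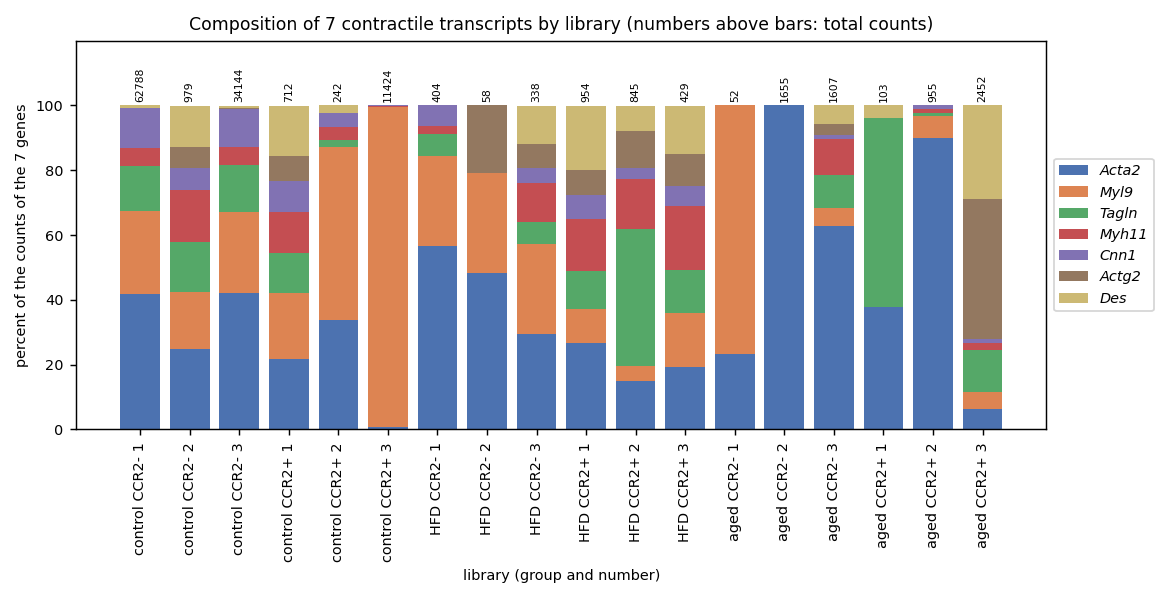
Share of each of 7 contractile transcripts in the counts of the 7 together, in percent, for each library, with the total count of the 7 above its bar. The 6 libraries with 338 to 979 counts and at least 10 of every transcript hold a mixed pattern, while high-fat diet CCR2- library 1 (404 counts) and aged CCR2+ library 2 (955 counts, 90.1% Acta2) lack Actg2 and Des, and control CCR2+ library 3 (98.7% Myl9) and aged CCR2- library 2 (100% Acta2) hold nearly 1 transcript alone.

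Library 3 of the aged CCR2- CRMs departed from libraries 1 and 2 in these transcripts. It held 167 counts of Tagln, 175 of Myh11, 95 of Des and 54 of Actg2, whereas libraries 1 and 2 had 0 counts of all 4. Among genes with a gap of 2-fold or more from library 1 to library 2, library 3 lay between them for 7 of 8 muscle and mural genes in aged CCR2- CRMs, the exception being Tpm2, and for 18 of 19 in control CCR2- CRMs, the exception being Atp2a2. Genes under 1 CPM in both libraries 1 and 2 were not counted. Pdgfrb was such a gene in control CCR2- CRMs, with 84 counts in library 3 and 0 in libraries 1 and 2.

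Tropomyosins are made in muscle and elsewhere, and their 2 genes differed in how widely they were found. Tpm1 (chromosome 9, 67022590 to 67049406, minus strand) had a median of 60.2 CPM and a range of 1.80 to 385 CPM, and it reached 10 CPM in 16 libraries. Tpm2, the beta tropomyosin, had a median of 4.37 CPM and was at 143, 63.2, 368 and 128 CPM in control CCR2- libraries 1 and 3, control CCR2+ library 2 and high-fat diet CCR2+ library 3. The ratio of Tpm2 to Tpm1 counts ran from 0.00853 to 1.30 over the 18 libraries. Des was highest in aged CCR2+ library 3, at 14.6 CPM, the library that was also highest in Actg2.

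Pericyte genes were scarce. Only Rgs5 and Cspg4 reached 10 CPM, and they did so together in control CCR2- libraries 1 and 3. Rgs5, which encodes a regulator of G protein signalling typical of pericytes, was at 58.2 CPM in high-fat diet CCR2- library 3, 36.8 and 14.7 CPM in control CCR2- libraries 1 and 3 and 12.9 CPM in aged CCR2- library 2. Cspg4, which encodes the NG2 proteoglycan, was at 54.1 and 27.5 CPM in control CCR2- libraries 1 and 3 and at 0.433 CPM or less elsewhere. Pdgfrb, the receptor that recruits pericytes, was at 6.79 CPM in aged CCR2+ library 2, with 0 counts in control CCR2- library 1. Kcnj8 and Abcc9, the subunits of the potassium channel of pericytes, and Notch3, a receptor of mural cells, stayed at 0.237 CPM or less in every library. In high-fat diet CCR2- library 3, the highest in Rgs5, Cspg4, Kcnj8, Abcc9 and Notch3 had 0 counts and Pdgfrb had 9.

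Summed by class, the cardiac sarcomere genes were higher in the controls than in the other conditions, although not every gene was. Their sum was 122 to 602 CPM in the 6 control libraries, 2.84 to 69.1 CPM in the 6 high-fat diet libraries and 13.4 to 67.7 CPM in the 6 aged libraries, so that controls did not overlap with the rest. Scaled by library size alone, the lowest control value was 83.6 CPM and the highest of the others 82.5 CPM, so that the gap nearly closed. The control sums were carried by different genes in different libraries, namely Acta1 and Ttn, Tnnt2 and Myl2, Ttn, Acta1 and Actc1, or Tnnc1. Myh6, Myh7, Tnni3 and Mybpc3 were highest in high-fat diet libraries, at 27.5, 1.94, 18.1 and 2.13 CPM. The other genes of the class were highest in control libraries. No test was made of a sum over the class. The 13 mitochondrial mRNAs, led by mt-Co1, summed to 17036 to 51329 CPM in controls. On the diet their sum was 10975 to 19462 CPM, which overlapped with controls, and in aged hearts it was 7674 to 11302 CPM. Both sums were thus mostly higher in controls, and no correlation between them over the libraries was computed. An exception was high-fat diet CCR2+ library 3, which had the lowest sarcomere sum, at 2.84 CPM. Its mitochondrial sum of 19462 CPM was the highest outside the controls. All 13 mitochondrial mRNAs were lower in aged than in control CCR2- CRMs without overlap, beside 15.2% of all tested genes. Library 3 of both groups lay between libraries 1 and 2 for most genes with a 2-fold gap. The part of the mitochondrial mRNAs in the sarcomere sums was not tested. The smooth muscle sum was 6.38 to 1342 CPM in control libraries and 0.900 to 36.0 CPM in the other 12, which overlapped, and the pericyte sums of controls (0.513 to 90.9 CPM) overlapped with those of the others (0.173 to 58.3 CPM).

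**Figure D4:**
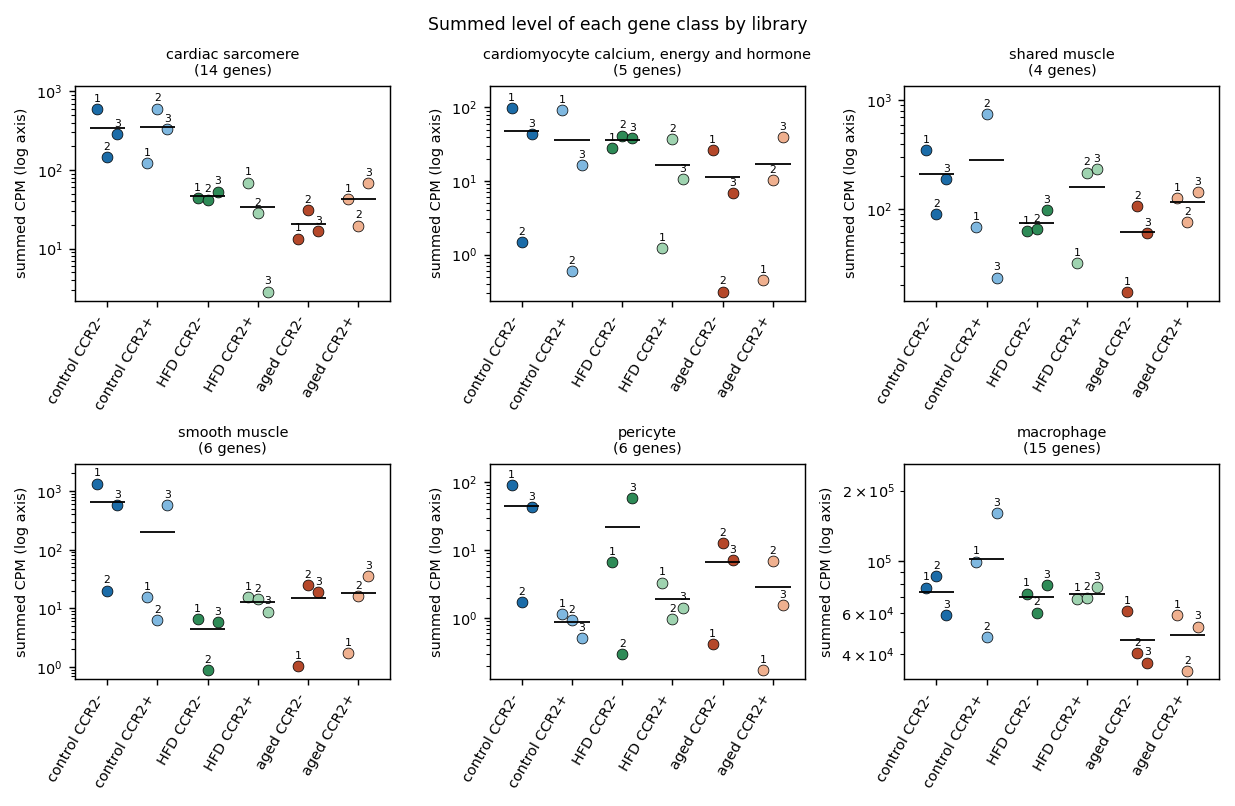
Summed CPM (TMM scaling, log axes with a separate range in each panel) of the 5 classes of muscle and mural genes and of 15 macrophage genes, by group. Points are libraries with their numbers and bars are group means of 3. Sarcomere sums of the 6 control libraries, 122 to 602 CPM, lie above those of the other 12, at 69.1 CPM at most, while the smooth muscle and pericyte sums overlap.

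To ask whether any gene differed between groups, all 18 libraries were fitted together with edgeR's quasi-likelihood test, and calls needed an adjusted p under 0.05 over the 15456 genes tested together with a log2 fold change beyond 2. Of the 35 genes, 28 passed the filter on low counts, and Abcc9, Kcnj8, Myh7, Myl4, Myl7, Notch3 and Ryr2 did not. A gene that passed through 1 high group or library is bound to look different there, so the counts below describe the list and do not support a difference. In each of the 7 comparisons between groups and 2 interactions, edgeR called 0 of the 28 genes. The dispersion common to all genes was 1.48, which stands for a very wide spread between libraries of a group. The other tools gave other counts, which are stated with each comparison.

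In CCR2- CRMs, the mean levels of the 6 smooth muscle genes and several sarcomere genes were lower in aged than in control libraries, and none passed the edgeR test. For 5 of the 6 smooth muscle genes, the control means rested on libraries 1 and 3, while library 2 was low. Library 3 itself lay between libraries 1 and 2. Acta2 was at 270 ± 280 CPM (SD, n = 3) in controls and 12.5 ± 12.2 CPM in aged CRMs, whose libraries were at 0.240, 24.7 and 12.5 CPM. These groups overlapped, since control library 2 was at 5.76 CPM. The log2 fold change was -4.44 (SE 1.61) with an adjusted p of 0.133 in edgeR. Tagln had a log2 fold change of -7.03 (SE 2.51, adjusted p = 0.129 in edgeR), with 0, 0 and 2.08 CPM in the aged libraries, all below the lowest control value of 3.58 CPM. Myl9 was at 166 ± 174 CPM in controls and 0.636 ± 0.572 CPM in aged CRMs (SD, n = 3), also without overlap, with a log2 fold change of -8.02 (SE 2.52, adjusted p = 0.117 in edgeR).

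Pln (-8.58, SE 2.47, adjusted p = 0.114 in edgeR) showed 0, 0 and 0.199 CPM in the aged libraries, each below the lowest control library at 0.284 CPM. Acta1 (-4.86, SE 2.16, adjusted p = 0.197 in edgeR) overlapped, because aged library 2 was at 15.6 CPM. Tpm1 was at 1.80, 40.9 and 22.6 CPM in aged CRMs, all below the lowest control value of 78.9 CPM, with a log2 fold change of -2.58 (SE 1.22, adjusted p = 0.226 in edgeR). Without library 3 of both groups the log2 fold changes were -4.51 for Acta2, -8.79 for Myl9, -4.90 for Acta1 and -2.67 for Tpm1. For Tagln and Pln they then set controls against 2 aged libraries with 0 counts and have no meaningful size.

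In this comparison 12 of the 28 tested genes of the list were lower and 2 higher in the aged libraries without overlap, where 15.2% and 12.8% of all tested genes were. At an unadjusted p under 0.05, 16 of the genes passed, beside 21.9% of all genes. Over all genes, edgeR called 0%. DESeq2 called 13 of the genes, all lower, and 19.2% of the genes it tested, and limma-voom with sample quality weights called 17 lower and 2 higher, and 31.8% of all genes. Without library 3 of both groups, edgeR called 0 of the genes and 0% of all genes, 11 of the genes passed an unadjusted p under 0.05 (12.5% of all genes), and 15 were lower and 2 higher without overlap, beside 24.3% and 16.6% of all genes.

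Atp2a2 had higher levels in aged CRMs of both subsets, which edgeR did not call and limma-voom called in CCR2- CRMs. In CCR2- CRMs it was at 1.94, 4.62 and 6.35 CPM in controls and at 15.1, 63.8 and 35.6 CPM in aged CRMs. In CCR2+ CRMs it was at 3.42, 1.78 and 11.1 CPM in controls and at 59.6, 51.4 and 17.2 CPM in aged CRMs. All aged libraries were higher than all control libraries of their subset. The log2 fold changes were 3.15 (SE 1.31, adjusted p = 0.172) and 2.97 (SE 1.31, adjusted p = 0.165) in edgeR, and the former was 3.60 without library 3 of the CCR2- groups. The highest level was not in an aged library but in high-fat diet CCR2+ library 2, at 132 CPM, beside 8.18 and 4.17 CPM in the other two of that group.

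In CCR2+ CRMs, the size of the difference from controls depended on single control libraries. Tpm2 was at 4.69, 368 and 4.0 CPM in controls and at 0.570, 0.669 and 1.40 CPM in aged CRMs, which did not overlap (log2 fold change -7.15, SE 2.01, adjusted p = 0.0977 in edgeR). Without control CCR2+ library 2 the log2 fold change was -2.29. Actc1 was at 0.618, 138 and 1.03 CPM in controls and at 0.173, 0.137 and 0.372 CPM in aged CRMs (-7.67, SE 2.61, adjusted p = 0.110 in edgeR), and the fold without that library was -1.83. In CCR2- CRMs the same gene was higher in aged libraries, at 11.6, 6.92 and 4.43 CPM, than in controls, at 0.710 and 1.04 CPM and 0 counts.

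Of the 28 tested genes of the list, 6 were lower and 1 higher without overlap, beside 7.89% and 10.3% of all genes, and 8 passed an unadjusted p under 0.05, beside 26.7%. For this comparison too edgeR called 0% of all genes. DESeq2 called 5, all lower, and 21.3% of the genes it tested, and limma-voom called 0 of the genes and 0% of all. In the test of whether the response to age differed between the subsets, edgeR called 0 of the genes and 0.0906% of all genes, with 8 of the genes and 21.1% of all at an unadjusted p under 0.05. DESeq2 called 4 there (14% of its genes) and limma-voom 0 (0.996%).

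The high-fat diet libraries were compared with the same control libraries, so that a high control library moves both comparisons. In CCR2- CRMs, Acta2 was at 3.67, 0.435 and 1.93 CPM on the diet, all below the lowest control library, with a log2 fold change of -7.07 (SE 1.82, adjusted p = 0.171 in edgeR). Tagln was at 0.433, 0 and 0.449 CPM on the diet (-8.27, SE 2.65, adjusted p = 0.180 in edgeR), again without overlap. Leaving out library 3 of the controls and of the aged CCR2- CRMs gave -7.15 and -8.34. Each of the 6 smooth muscle genes was lower on the diet without overlap, and Actn2 and Des were as well, which made 8 genes beside 10.1% of all genes, while Tnni3 was higher, beside 11.3%. Without control library 3 the same genes did not overlap, beside 13.2% of all genes in either direction. At an unadjusted p under 0.05, 9 of the genes passed, beside 18.7% of all genes. Calls by edgeR made up 0% of all genes. DESeq2 called 7, all lower, and 12.5% of its genes, and limma-voom called 7 lower and 3 higher, and 13.1% of all genes.

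In CCR2+ CRMs on the diet, Acta1 was at 1.73, 0.411 and 0.267 CPM, below the 2.91, 459 and 7.19 CPM of controls (-7.60, SE 2.46, adjusted p = 0.107 in edgeR), and the log2 fold change was -2.63 without control CCR2+ library 2. Tnnc1 had 0 counts in all 3 libraries on the diet, at least 1673-fold lower than in controls, a bound that rests on the 317 CPM of control CCR2+ library 3. There were 7 genes lower and 1 higher without overlap, beside 7.59% and 8.99% of all genes, and 7 at an unadjusted p under 0.05, beside 24.5%. Over all genes edgeR called 0.123%. DESeq2 called 4, all lower, and 19.8% of its genes, and limma-voom called 0 (0.0129% of all genes). For the interaction of diet and subset, edgeR called 0 of the genes and 0.0194% of all genes, with 6 of the genes and 20.2% of all at an unadjusted p under 0.05. DESeq2 called 2 (11.6% of its genes) and limma-voom 0 (0.0194%).

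Between the subsets of control hearts, 5 of the 6 smooth muscle genes had lower levels in CCR2+ CRMs, and edgeR called none of the class. Myl9 was the exception, with a mean of 195 CPM in CCR2+ and 166 CPM in CCR2- libraries. The former mean rested on CCR2+ library 3, at 579 CPM. Acta2 was at 563, 5.76 and 242 CPM in CCR2- and 3.99, 2.22 and 4.47 CPM in CCR2+ libraries, which did not overlap (log2 fold change of CCR2+ against CCR2- -6.25, SE 1.76, adjusted p = 0.0846 in edgeR). Tagln gave -6.26 (SE 2.43, adjusted p = 0.116 in edgeR), with 2.29, 0.135 and 1.13 CPM in CCR2+ libraries. Without control CCR2- library 3 and its aged counterpart these were -6.33 and -6.34. Lower without overlap in CCR2+ CRMs were 6 genes, Acta2, Actg2, Des, Myh11, Rgs5 and Tagln, and higher were 0, beside 8.75% and 8.58% of all genes. The same 6 did not overlap without control CCR2- library 3, beside 10.1% of all genes. At an unadjusted p under 0.05, 13 of the genes passed, beside 27.8%. Among all genes edgeR called 0.673%. DESeq2 called 7 lower and 1 higher (24.8% of its genes) and limma-voom 2 higher, Nppa and Tnnc1 (3.69%).

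Between the subsets of aged hearts, edgeR again called none of the genes, and the smallest adjusted p among them was 0.328. Myl2 was at 0.279, 0.149 and 0.212 CPM in CCR2- and at 8.10, 0 and 17.0 CPM in CCR2+ libraries, which overlapped because CCR2+ library 2 had 0 counts (log2 fold change 5.28, SE 2.15, adjusted p = 0.328 in edgeR). Without library 3 of the CCR2- groups it was 5.27. Ttn and Tnni3 were higher and Actc1 lower in CCR2+ CRMs without overlap, beside 7.93% and 7% of all genes, and 5 genes passed an unadjusted p under 0.05, beside 14.1%. Without aged CCR2- library 3, 5 genes were higher and 1 lower without overlap, beside 11% and 8.63% of all genes. Of all genes 0% were called by edgeR, DESeq2 called Myl2 and Ttn (8.33% of its genes), and limma-voom called 0 (1.1% of all genes).

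On the high-fat diet, Actg2, Cnn1, Des, Myh11 and Tagln were higher in CCR2+ CRMs and Ckm, Pln and Tnnc1 were lower without overlap, beside 7.38% and 5.94% of all genes. These smooth muscle levels were low, with Myh11 at 3.13, 2.43 and 2.06 CPM in CCR2+ against 0.160, 0 and 0.800 CPM in CCR2- libraries. Atp2a2 had a log2 fold change of 2.86 (SE 1.30, adjusted p = 0.361 in edgeR) that rested on the 1 library at 132 CPM and was -0.10 without it. At an unadjusted p under 0.05, 4 of the genes passed, beside 13.4% of all genes. Of all genes 0.0129% were called by edgeR, and DESeq2 (5.66% of its genes) and limma-voom (0.0129%) called 0 of the 35.

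Other genes of the same cells were measured from lists that were likewise chosen with results known. Of 30 further cardiomyocyte genes 18 were tested, of 15 further smooth muscle genes 10 and of 9 further pericyte genes 6, and edgeR called 0 of them in each of the 9 tests. In aged against control CCR2- CRMs, 5 of the further cardiomyocyte genes, 4 of the further smooth muscle genes and 3 of the further pericyte genes passed an unadjusted p under 0.05, beside 21.9% of all genes. Their sums ranged from 69.3 to 567 CPM for cardiomyocytes, led by Eno3, which encodes the muscle enolase, from 1.74 to 847 CPM for smooth muscle, led by Cald1, which encodes caldesmon and is not restricted to muscle, and from 2.10 to 158 CPM for pericytes, led by P2ry14, a receptor for UDP-glucose.

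Genes of further cell types in the heart were present at levels of a similar order. Fibroblast genes, 8 in number and led by Dcn, summed to 16.9 to 1044 CPM, and 9 endothelial genes led by Fabp4 summed to 7.55 to 396 CPM. A list of 4 haemoglobin genes, led by Hba-a1, and Alas2 summed to 40.8 to 4098 CPM, with the highest values of 4098 and 3520 CPM in control CCR2+ libraries 2 and 3. Neutrophil genes, 7 in number and led by S100a8, summed to 22.4 to 751 CPM, and 9 lymphocyte genes led by Nkg7 summed to 34 to 237 CPM. The part of any of these in the differences above was not tested. Since each library is bulk RNA, more cells of another type and more RNA per such cell cannot be told apart.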

How the data were processed

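The data were 18 RNA libraries from sorted CRMs, 3 per group, with groups taken from the sample titles. The authors trimmed reads with Cutadapt, aligned them with HISAT2 to the mouse genome of Ensembl release 101 and used StringTie. The deposited values are raw counts, whole numbers for each Ensembl gene. Symbols, exons and coordinates came from GENCODE M21 (GRCm38), with a symbol for 55141 of 55401 genes. Promoters came from RefSeq (GRCm38.p6).

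Counts were tested with edgeR 4.0.16 in R 4.3.3 (filterByExpr, TMM factors of 0.427 to 1.46, quasi-likelihood fit of 18 libraries by 6 groups, Benjamini-Hochberg adjustment over 15456 genes). CPM used TMM-scaled totals. The thresholds were those of the study's methods, a log2 fold change beyond 2 with an adjusted p under 0.05, and for interactions the adjusted p alone. Alternatives were DESeq2 1.42.0, limma 3.58.1 voom with quality weights, RLE factors, library size alone, other filters and subsets of libraries, a replicate block, no fold limit and leaving out each library. The fits were tested on simulated data for age in CCR2- CRMs. At a low dispersion each tool recovered most of the changed genes. At the dispersion of these data edgeR and limma-voom recovered none, and DESeq2 recovered few and also made false calls. A count of 0 called genes therefore does not show equal levels. All 35 members were named by rule, and of every other list only the gene with the highest mean CPM. The members and lists were chosen with earlier results of these data known. Figures used matplotlib 3.10.9 in Python 3.11.15.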

Additional observations from a re-analysis of the deposited data

How the results depend on the processing

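The count of called genes was 0 in all 9 comparisons with edgeR under TMM, RLE factors, library size alone, no fold-change limit (not applicable to the interactions), the replicate block, the 12 control and aged libraries and without library 3 of control and aged CCR2- CRMs, and it stayed at 0 to 0 in each fit that left out 1 library. With DESeq2 the counts were 13 and 5 for age in CCR2- and CCR2+ CRMs, 7 and 4 for the diet, 8 and 2 for the subsets in control and aged hearts, 0 for the subsets on the diet, and 4 and 2 for the interactions of age and diet with subset. Limma-voom gave 19 for age and 10 for the diet in CCR2- CRMs and 2 for the subsets in control hearts, and 0 in the others. With no filter the counts were 1 and 5 for age (0.0963% and 1.67% of all genes), 3 for the diet in CCR2+ CRMs (1.68%), 2 for the subsets in control hearts (2.71%), 2 and 3 for the interactions (2.05% and 1.77%), and 0 in the others. With at least 10 counts in every library 1 gene, Acta2, was called for the subsets in control hearts (11.7% of all genes), and with only the compared libraries 2 genes for age in CCR2- CRMs (7.29%). The cause of these differences was not tested. The Atp2a2 log2 fold change between subsets on the diet ran from -0.10 to 3.55 when 1 library was left out, reversing without high-fat diet CCR2+ library 2. The median over all tested genes shifted with the scaling, for age in CCR2+ CRMs from 0 to -0.80 (log2, RLE factors) or 0.88 (library size alone). Same-numbered libraries did not pair: of 21 correlations of their deviations, from -0.04 to 0.23, only 1 passed 0.1. At this depth a count of 0 allows a level of up to 0.154 CPM in the library with the smallest scaled total. Of the 90 class sums, 5 moved by more than 1 SD with library size alone.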
